A study of Homo sapiens with 12 samples.

Results

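The genes described here are cytosolic and mitochondrial heat shock chaperones: 46 genes chosen by symbol for function, with earlier results of these data known. They comprise heat shock factors, HSP90 and its co-chaperones, HSP70 and HSP110 proteins, HSP40 (J-domain) proteins, BAG proteins with the ubiquitin ligase CHIP, small heat shock proteins, the cytosolic chaperonin TRiC and the mitochondrial chaperones. Of the 46, 40 had at least 1 probe set that the array annotation assigned to that gene alone, out of 19775 such genes on the array. For each of the 40, the probe set with the highest mean signal over all arrays stood for the gene, and 10 of the 40 had no other. HSPA1A, HSPA1B, HSPA8 and TCP1 were measured only by probe sets annotated to several genes and are given apart from the counts. HSF2 and AHSA1 were matched to no probe set and were not analysed here.

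Chaperones bind unfolded or partly folded proteins and keep them from aggregating until they fold, are handed to another chaperone or are degraded. HSP70 proteins bind and release clients in an ATP cycle that HSP40 proteins start and nucleotide exchange factors (HSP110 and BAG proteins) end, HSP90 matures kinases and receptors with its co-chaperones, and TRiC folds actin and tubulin in a closed chamber. In stressed cells the transcription factor HSF1 binds heat shock elements, repeats of the unit GAA in alternating orientation, and raises the transcription of many of these genes. Myeloma cells, which secrete large amounts of immunoglobulin, are known for a high demand on protein folding and degradation.

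The 12 Affymetrix expression arrays fell into 4 groups of 3: MMS1 with a miR-16 sponge, MMS1 with a control mock sponge, RPMI8226 with a miR-16 sponge and RPMI8226 with a control mock sponge. All 4 groups had received GFP lentiviruses, had been sorted by flow cytometry and expanded, and are labelled as multiple myeloma lines. A sponge is a transcript with repeated binding sites for a microRNA, which titrates the microRNA away from its targets, and the study used it to imitate the loss of miR-16 seen in myeloma and to search for target genes. The arrays gave no direct measure of mature miR-16. Nothing in the labels assigns the 3 arrays of a group to separate cultures, and p-values therefore reflect only the spread between arrays.

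Values are log2 signals as the authors deposited them, with a lower bound of 4 and a highest value of 14.71, and array medians ran from 5.80 to 5.90. The number of arrays limits the precision, with a median standard error (SE) of 0.14 for a log2 difference between 2 groups. Markers went against the label of the lines. Of 12 plasma cell markers only SDC1 and XBP1 lay above the upper quartile of genes and JCHAIN had a mean signal of 4.20, near the lower bound. All 9 erythroid markers measured lay above the upper quartile, HBE1 highest with a mean of 14.16. MMS1 sponge replicate 1 stood apart from the other arrays, with a log2 signal for 18S ribosomal RNA of 7.84, against 9.56 to 11.14 elsewhere, and a 3′ minus 5′ difference for ACTB of 0.485, against 0.0824 to 0.342 elsewhere. Calls among the 40 genes that change without this array are given both ways.

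The sequences below are the microRNA that the sponge was built to bind and the promoters of 5 of the 8 genes in which a search found heat shock elements of 3 units, taken from the HSP90, HSP70, HSP40 and co-chaperone groups, with that of HSPB1, the gene with the largest difference. The mature miR-16 sequence, from RefSeq (GRCh38.p14), is encoded at chr3:160404754-160404775 on the plus strand and at chr13:50049027-50049048 on the minus strand, and capitals mark its seed, bases 2 to 8.
hsa-miR-16-5p: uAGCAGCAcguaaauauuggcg
The promoters are the 250 bases upstream of an annotated start in RefSeq (GRCh38.p14), written 5′ to 3′ on the gene's strand. Capitals mark elements of 3 units, which are GAANNTTC followed 2 bases on by GAA, or TTCNNGAA followed 2 bases on by TTC. Both strands were searched, and the 2 motifs can overlap each other. HSP90AA1, the inducible cytosolic HSP90, had 1 element that began 88 bases upstream of the start at chr14:102087045-102087294 (minus strand).
HSP90AA1: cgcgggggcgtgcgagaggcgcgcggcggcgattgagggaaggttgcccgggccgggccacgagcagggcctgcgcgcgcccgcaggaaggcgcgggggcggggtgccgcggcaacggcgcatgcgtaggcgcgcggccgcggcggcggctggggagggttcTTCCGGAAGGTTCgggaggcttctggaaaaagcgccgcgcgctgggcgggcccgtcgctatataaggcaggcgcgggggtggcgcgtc
HSP90AB1, the constitutive cytosolic HSP90, had 2 elements, 165 and 112 bases upstream of the start at chr6:44247693-44247942 (plus strand).
HSP90AB1: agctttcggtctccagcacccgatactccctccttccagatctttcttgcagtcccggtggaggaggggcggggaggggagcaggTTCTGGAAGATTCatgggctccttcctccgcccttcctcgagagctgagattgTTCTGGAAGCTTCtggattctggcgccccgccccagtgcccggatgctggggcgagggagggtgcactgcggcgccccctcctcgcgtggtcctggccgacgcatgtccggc
HSPA6, an HSP70 that is strictly stress-inducible, had 1 element 74 bases upstream at chr1:161524290-161524539 (plus strand).
HSPA6: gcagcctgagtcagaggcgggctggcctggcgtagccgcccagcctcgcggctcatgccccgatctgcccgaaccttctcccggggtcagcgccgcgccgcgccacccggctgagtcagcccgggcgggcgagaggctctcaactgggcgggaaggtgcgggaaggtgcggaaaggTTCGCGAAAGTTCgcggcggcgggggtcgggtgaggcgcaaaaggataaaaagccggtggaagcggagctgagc
CHORDC1, an HSP90 co-chaperone, had 3 elements that overlapped in 1 run, 60, 55 and 50 bases upstream at chr11:90223050-90223299 (minus strand).
CHORDC1: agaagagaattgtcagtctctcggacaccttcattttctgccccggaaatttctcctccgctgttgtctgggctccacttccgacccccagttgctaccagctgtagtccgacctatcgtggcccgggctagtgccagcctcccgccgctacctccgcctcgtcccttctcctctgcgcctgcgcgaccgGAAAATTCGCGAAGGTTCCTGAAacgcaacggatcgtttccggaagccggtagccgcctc
DNAJB6, an HSP40 protein, had 1 element 131 bases upstream at chr7:157336754-157337003 (plus strand).
DNAJB6: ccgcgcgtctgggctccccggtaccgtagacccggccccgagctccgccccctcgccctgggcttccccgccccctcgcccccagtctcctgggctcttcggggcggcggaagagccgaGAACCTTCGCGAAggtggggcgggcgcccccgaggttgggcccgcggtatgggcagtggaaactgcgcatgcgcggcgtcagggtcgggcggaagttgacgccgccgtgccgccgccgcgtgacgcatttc
HSPB1, the small heat shock protein also called HSP27, had no element of 3 units in its window at chr7:76302423-76302672 (plus strand) and a shorter one of 2 units (GAANNTTC or TTCNNGAA, in capitals) 182 bases upstream.
HSPB1: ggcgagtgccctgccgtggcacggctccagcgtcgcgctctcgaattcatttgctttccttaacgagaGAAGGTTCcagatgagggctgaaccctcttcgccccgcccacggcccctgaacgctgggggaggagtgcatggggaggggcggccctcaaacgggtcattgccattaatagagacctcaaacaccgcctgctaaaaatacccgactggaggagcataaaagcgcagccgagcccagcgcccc

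Of 41 chaperone genes with a promoter in the table, 8 held an element of 3 units within 250 bases upstream and 50 downstream of a start (19.5%), against 166 of all 27305 genes (0.608%). The 8 genes were HSP90AA1, HSP90AB1, HSPA6, HSPA8, HSPD1, DNAJA1, DNAJB6 and CHORDC1. With 2 units, 22 of the 41 held a match (53.7%), against 16.2% of all genes. A match describes these letters and is not a site of binding.

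In MMS1, the miR-16 sponge arrays had lower HSPB1, DNAJB6, BAG2, STUB1, DNAJA3 and HSPE1, and higher PTGES3, than the control sponge arrays. These 7 genes were 17.5% of the 40 and the calls were made at a limma adjusted p under 0.05 (Benjamini-Hochberg over all probe sets). Over all genes 12.4% were called in this comparison (4.34% higher, 8.08% lower), or 19.3% of those above the median signal, a range in which 36 of the 40 lay. The median log2 difference of the 40 was -0.0469, against -0.0369 over all genes. HSPA1A and HSPA1B, which encode the main inducible HSP70, were higher in the probe sets that they share. In RNA of whole cultures, a change in every cell and a change in the share of cells cannot be told apart. In RPMI8226, 0 of the 40 were called, against 0.217% of all genes, while 35 of the 40 estimates lay below 0.

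**Figure D1:**
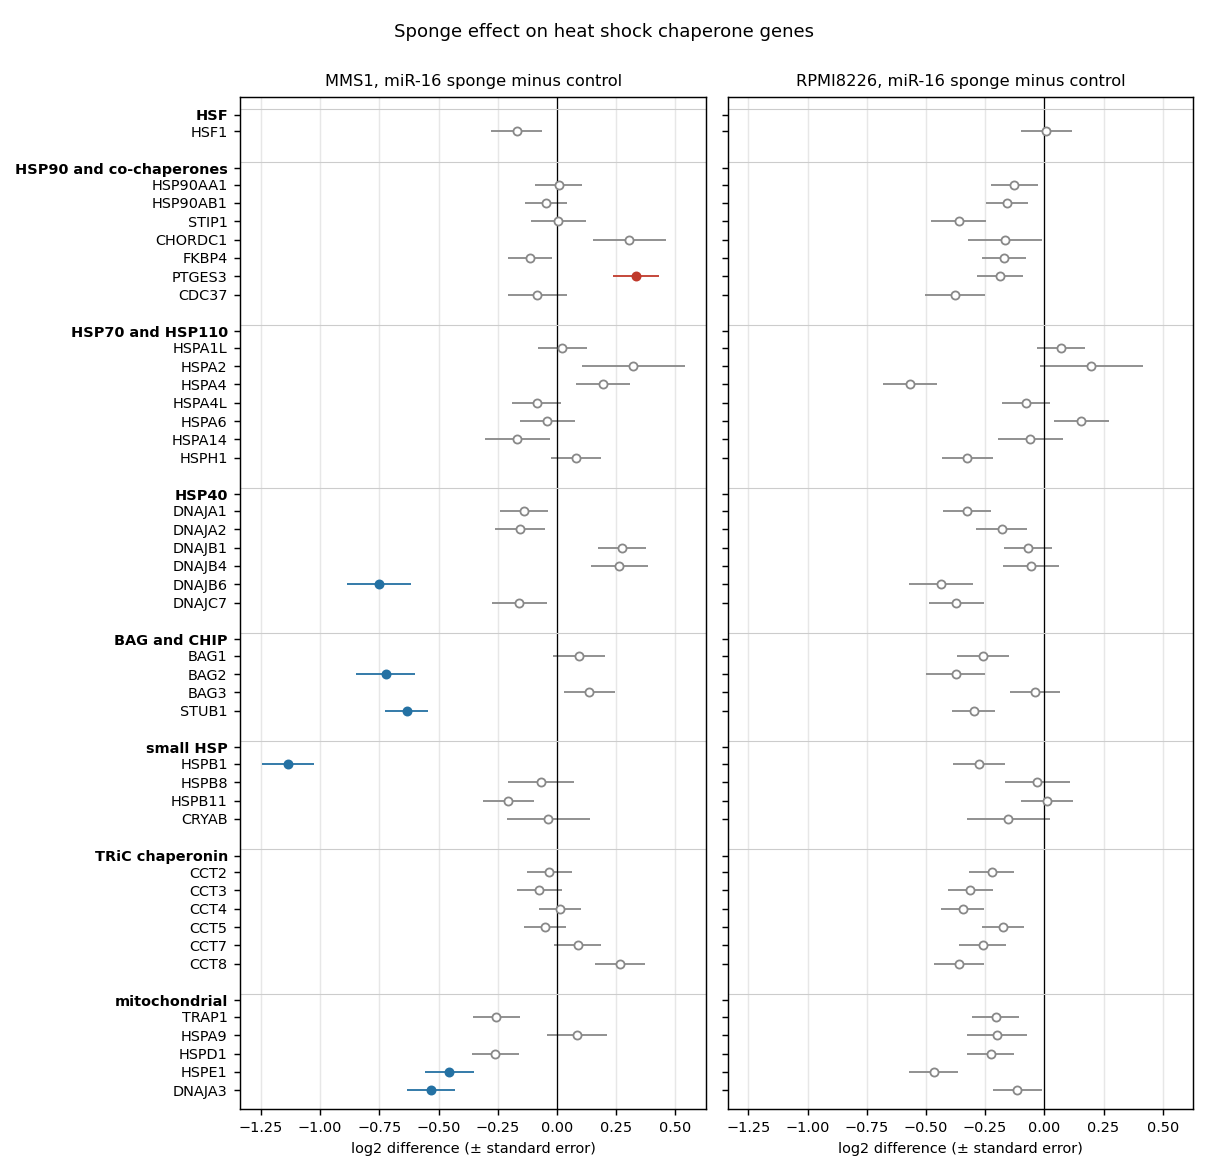
Log2 difference, miR-16 sponge minus control sponge, for the 40 chaperone genes in MMS1 (left) and RPMI8226 (right), grouped by role. Points are limma estimates from 3 arrays a group, bars are ± 1 SE, and filled points passed an adjusted p under 0.05 (blue lower, red higher): 7 are filled in MMS1 and 0 in RPMI8226, where 35 points lie left of 0.

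HSF1, the factor that binds heat shock elements and activates these genes under stress, had log2 signals of 8.44, 8.75 and 8.48 in MMS1 sponge arrays, against 8.80, 8.63 and 8.76 in MMS1 control arrays. In RPMI8226 its signals were 8.55, 8.57 and 8.54 in sponge arrays and 8.65, 8.48 and 8.51 in control arrays. The groups overlapped in both lines, and the log2 differences were -0.17 ± 0.11 in MMS1 (SE, n = 3 each, limma adjusted p = 0.4) and 0.01 ± 0.11 in RPMI8226 (limma adjusted p = 0.985).

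Among HSP90 and its co-chaperones, 1 of the 7 genes was called in MMS1. PTGES3 (p23), which stabilises the closed form of HSP90, had signals of 11.97, 11.74 and 11.79 in MMS1 sponge arrays, against 11.56, 11.44 and 11.50 in MMS1 control arrays. Every sponge array was above every control array, and the difference was 0.33 ± 0.10 (limma adjusted p = 0.047). That call was lost without any 1 of the 12 arrays, with adjusted p from 0.0555 to 0.147, and with the replicate number as a block (0.0738). In RPMI8226 PTGES3 had 11.62, 11.56 and 11.52 in sponge arrays and 11.68, 11.81 and 11.77 in control arrays, the opposite order with no overlap (-0.19 ± 0.10, limma adjusted p = 0.43).

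Neither gene of cytosolic HSP90 itself was called. HSP90AA1 had 11.59, 11.32 and 11.39 in MMS1 sponge arrays, against 11.41, 11.39 and 11.47 in MMS1 controls. HSP90AB1 had 13.17, 13.10 and 13.01 in MMS1 sponge arrays, against 13.17, 13.10 and 13.15 in MMS1 controls. The log2 differences were 0.01 for HSP90AA1 and -0.04 for HSP90AB1, within the spread of the arrays. STIP1 (HOP, which links HSP70 to HSP90), the kinase adaptor CDC37, the immunophilin FKBP4 and CHORDC1 ranged from -0.11 to 0.31 in MMS1 and were not called. In RPMI8226 all 7 genes of the group had estimates below 0, from -0.38 (CDC37) to -0.13 (HSP90AA1). Such estimates were 53.5% over all genes and 68.1% in the brightest 10%. Of the 7, 6 (all but CHORDC1) had every sponge array below every control array. Over all genes that share was 17.1%, and in the brightest 10% it was 44.3%.

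The HSP70 and HSP110 group had 0 of 7 genes called in either line. HSPA4, an HSP110 nucleotide exchange factor, had 10.09, 9.88 and 9.66 in MMS1 sponge arrays, against 9.64, 9.66 and 9.75 in MMS1 controls. In RPMI8226 it had 9.31, 9.40 and 9.34 in sponge arrays and 9.85, 9.96 and 9.96 in controls. The MMS1 groups overlapped (0.19 ± 0.11, limma adjusted p = 0.349), and in RPMI8226 all sponge arrays lay below all controls (-0.57 ± 0.11, limma adjusted p = 0.0661), the lowest estimate of the 40 in that line. Without MMS1 sponge replicate 1 in the fit, the RPMI8226 estimate of HSPA4 was the same and its adjusted p from limma was 0.0214. HSPA4 has 4 probe sets: 3 of the x_at or s_at kind, whose probes can bind other transcripts, gave RPMI8226 estimates of -0.61 to -0.53, and the 1 dimmer probe set not of that kind gave 0.03.

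HSPH1 (HSP105, a stress-inducible HSP110) had 8.83, 8.71 and 8.63 in MMS1 sponge arrays and 8.55, 8.60 and 8.79 in MMS1 controls. In RPMI8226 HSPH1 had 8.39, 8.26 and 8.21 in sponge arrays and 8.52, 8.66 and 8.66 in controls. The MMS1 arrays overlapped (0.08 ± 0.11) and the RPMI8226 arrays did not (-0.32 ± 0.11, limma adjusted p = 0.202). HSPA6 gave 2 readings: its brighter probe set differed by -0.04 in MMS1 (limma adjusted p = 0.889), and its dimmer probe set had 6.58, 6.70 and 6.61 in MMS1 sponge arrays, against 7.17, 7.30 and 7.31 in controls (-0.63, limma adjusted p = 0.00213). HSPA1L, HSPA2, HSPA4L and HSPA14 were not called and ranged from -0.17 to 0.32 in MMS1 and from -0.08 to 0.20 in RPMI8226. Of these, HSPA2 was among the dimmest 15.2% of genes, and the other 2 probe sets of HSPA14, chosen after their values were seen, fell in MMS1 (-0.57 and -0.55, limma adjusted p = 0.00613 and 0.0214).

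HSPA1A and HSPA1B, near-identical neighbouring genes, were measured together by 2 probe sets, and by a further probe set with HSPA1L. The brightest had 10.55, 10.15 and 10.20 in MMS1 sponge arrays, against 9.50, 9.29 and 9.42 in MMS1 controls. In RPMI8226 the same probe set had 9.20, 9.04 and 9.03 in sponge arrays and 9.06, 9.12 and 9.17 in controls. The MMS1 sponge arrays thus stood above all 9 others, and the difference of 0.89 ± 0.12 in MMS1 (a 1.86-fold higher signal, limma adjusted p = 0.00033) was called, while that in RPMI8226 was not (-0.02 ± 0.12, limma adjusted p = 0.961). The difference between the lines in that effect was itself called (-0.92 ± 0.17, RPMI8226 minus MMS1, limma adjusted p = 0.00724).

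The other HSPA1 probe sets were higher in MMS1 too. The dimmer probe set of HSPA1A and HSPA1B differed by 0.64 in MMS1 (limma adjusted p = 0.00969), and the one shared with HSPA1L by 0.97 (limma adjusted p = 0.000262). In RPMI8226 they differed by -0.26 (limma adjusted p = 0.452) and -0.38 (limma adjusted p = 0.213), and in the one shared with HSPA1L all sponge arrays lay below all controls. All 3 MMS1 calls held without MMS1 sponge replicate 1, the array with the highest HSPA1 signals, at log2 differences of 0.77, 0.51 and 0.85. HSPA1A and HSPA1B cannot be told apart in these probe sets. HSPA8, the constitutive HSP70, was measured by 4 probe sets shared with small nucleolar RNAs of its introns, which differed by -0.09 to -0.04 in MMS1 and by -0.33 to -0.26 in RPMI8226, none of them called. In each of the 4 the RPMI8226 sponge arrays lay below the RPMI8226 controls.

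**Figure D2:**
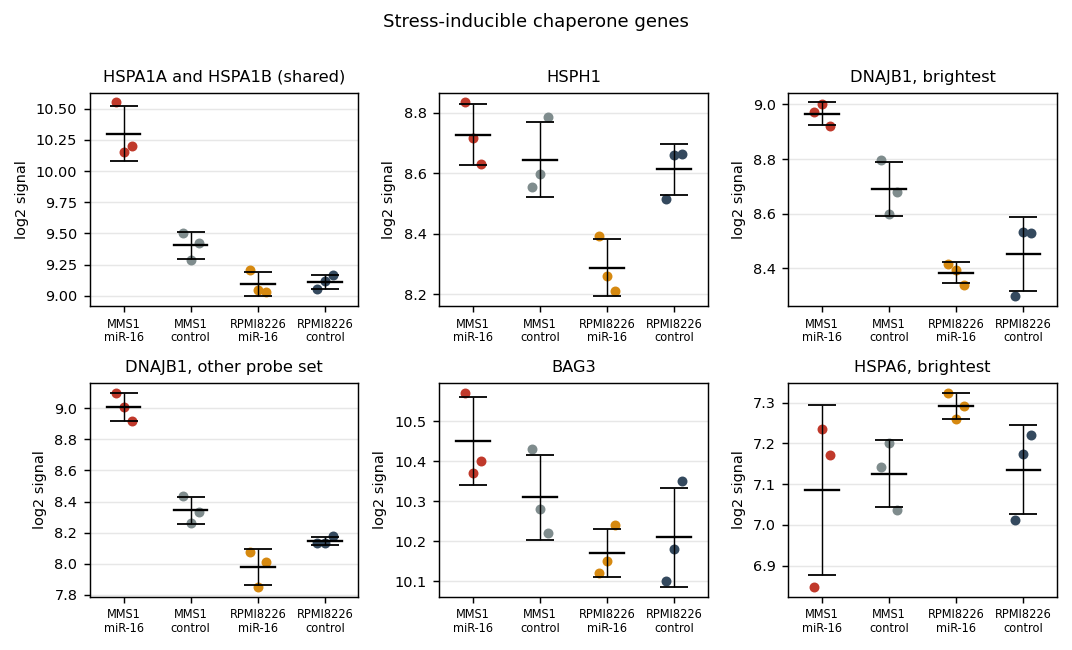
Log2 signal on each array of stress-inducible chaperone genes, with the probe set shared by HSPA1A and HSPA1B and both probe sets of DNAJB1. Points are arrays, long lines are group means and bars are ± 1 SD (n = 3); the axes differ between panels and do not start at 0. The MMS1 sponge arrays lie above all others for HSPA1A and HSPA1B and for both DNAJB1 probe sets, and overlap the MMS1 controls for HSPH1, BAG3 and HSPA6.

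In the HSP40 group, 1 of 6 genes was called in MMS1. DNAJB6, which suppresses aggregation of polyglutamine proteins, had 6.02, 5.70 and 5.51 in MMS1 sponge arrays, against 6.72, 6.37 and 6.39 in MMS1 controls. In RPMI8226 DNAJB6 had 6.44, 6.43 and 6.33 in sponge arrays and 6.88, 6.81 and 6.82 in controls. Neither pair overlapped: the differences were -0.75 ± 0.14 in MMS1 (1.68-fold lower, limma adjusted p = 0.00304) and -0.44 ± 0.14 in RPMI8226 (limma adjusted p = 0.185). This probe set was near the middle of all genes by signal (percentile 48.1), and 2 brighter probe sets annotated to DNAJB6 together with TMEM135 differed by 0.16 and 0.09 in MMS1, neither called, so the DNAJB6 call holds for that probe set alone.

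DNAJB1 (HSP40), the stress-inducible partner of HSP70, had 8.97, 9.0 and 8.92 in MMS1 sponge arrays, against 8.80, 8.60 and 8.68 in MMS1 controls. In RPMI8226 it had 8.42, 8.39 and 8.34 in sponge arrays and 8.30, 8.53 and 8.53 in controls. All MMS1 sponge arrays were above the MMS1 controls, and the difference was 0.27 ± 0.10 (limma adjusted p = 0.115). The other DNAJB1 probe set had 9.10, 9.01 and 8.92 in MMS1 sponge arrays, against 8.43, 8.26 and 8.34 in MMS1 controls. That difference was called at 0.66 (limma adjusted p = 0.000792), and its effect differed between the lines by -0.83 (RPMI8226 minus MMS1, limma adjusted p = 0.0041). With the 2 probe sets averaged, DNAJB1 was called higher in MMS1 at 0.47 (limma adjusted p = 0.00149).

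DNAJA1, DNAJA2, DNAJB4 and DNAJC7 were not called in MMS1, where they ranged from -0.16 to 0.26. For DNAJA1, a farnesylated HSP40, the dimmer probe set, chosen after its values were seen, fell in MMS1 (-0.63, limma adjusted p = 0.00187), while the brighter differed by -0.14. In RPMI8226 all 6 HSP40 genes had estimates below 0, from -0.44 (DNAJB6) to -0.06 (DNAJB4). Such estimates were 53.5% over all genes and 61.5% above the median signal, where all of the HSP40 genes but DNAJB6 lay. The RPMI8226 sponge arrays lay wholly below the controls for DNAJA1, DNAJB6 and DNAJC7 (50% of the group). Over all genes that share was 17.1%, and above the median signal it was 28.4%.

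BAG2 and STUB1, both regulators of what HSP70 does with its clients, fell in MMS1 with the sponge. STUB1 (CHIP), the ubiquitin ligase that marks chaperone-bound clients for degradation, had 9.85, 9.82 and 9.91 in MMS1 sponge arrays, against 10.55, 10.41 and 10.54 in MMS1 controls. In RPMI8226 STUB1 had 10.08, 9.97 and 9.96 in sponge arrays and 10.28, 10.30 and 10.32 in controls. The arrays did not overlap in either line, with differences of -0.63 ± 0.09 in MMS1 (1.55-fold lower, limma adjusted p = 0.000545) and -0.30 ± 0.09 in RPMI8226 (limma adjusted p = 0.174). All 3 STUB1 probe sets were called lower in MMS1, from -0.63 to -0.46.

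BAG2, an exchange factor of HSP70 that inhibits CHIP, had 7.68, 7.34 and 7.34 in MMS1 sponge arrays, against 8.24, 7.99 and 8.31 in MMS1 controls. BAG2 had 8.01, 7.94 and 7.99 in RPMI8226 sponge arrays and 8.22, 8.48 and 8.36 in RPMI8226 controls. Sponge arrays were below controls in both lines, with differences of -0.72 ± 0.12 in MMS1 (1.65-fold lower, limma adjusted p = 0.00217) and of -0.37 ± 0.12 in RPMI8226 (limma adjusted p = 0.211). The other 2 BAG2 probe sets, both dimmer, differed by 0.00 and -0.11 in MMS1 and were not called. BAG3, a stress-inducible BAG protein that directs clients to autophagy, had 10.57, 10.37 and 10.40 in MMS1 sponge arrays and 10.43, 10.28 and 10.22 in MMS1 controls, which overlapped (0.14 ± 0.11, limma adjusted p = 0.508). In RPMI8226 BAG3 had 10.12, 10.15 and 10.24 in sponge arrays and 10.10, 10.18 and 10.35 in controls (-0.04 ± 0.11). BAG1, an exchange factor that links HSP70 to the proteasome, differed by 0.09 in MMS1 and by -0.26 in RPMI8226 and was not called.

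HSPB1 had the largest difference of the 40 genes. This small heat shock protein holds unfolding proteins for refolding by HSP70 and is abundant in many tumour cells. Its signals were 9.49, 9.82 and 9.66 in MMS1 sponge arrays, against 10.85, 10.70 and 10.83 in MMS1 controls. The means were 9.66 ± 0.17 in MMS1 sponge arrays and 10.79 ± 0.08 in MMS1 controls (SD, n = 3 each), a difference of -1.14 ± 0.11 (2.2-fold lower, limma adjusted p = 2.13e-05). In RPMI8226 HSPB1 had 9.73, 9.86 and 9.95 in sponge arrays and 10.21, 10.07 and 10.10 in controls. These too did not overlap, but the difference was -0.28 ± 0.11 (limma adjusted p = 0.294), and the effect was smaller in RPMI8226 than in MMS1 by 0.86 ± 0.16 (limma adjusted p = 0.00625). HSPB1 has 1 probe set assigned to it alone, and it is of the s_at kind, whose probes can bind other transcripts. The other genes grouped here with the small heat shock proteins were HSPB8, HSPB11 (listed on the array as IFT25) and CRYAB. They ranged from -0.20 to -0.04 in MMS1 and from -0.15 to 0.01 in RPMI8226 without a call, and CRYAB was among the dimmest 16% of genes.

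**Figure D3:**
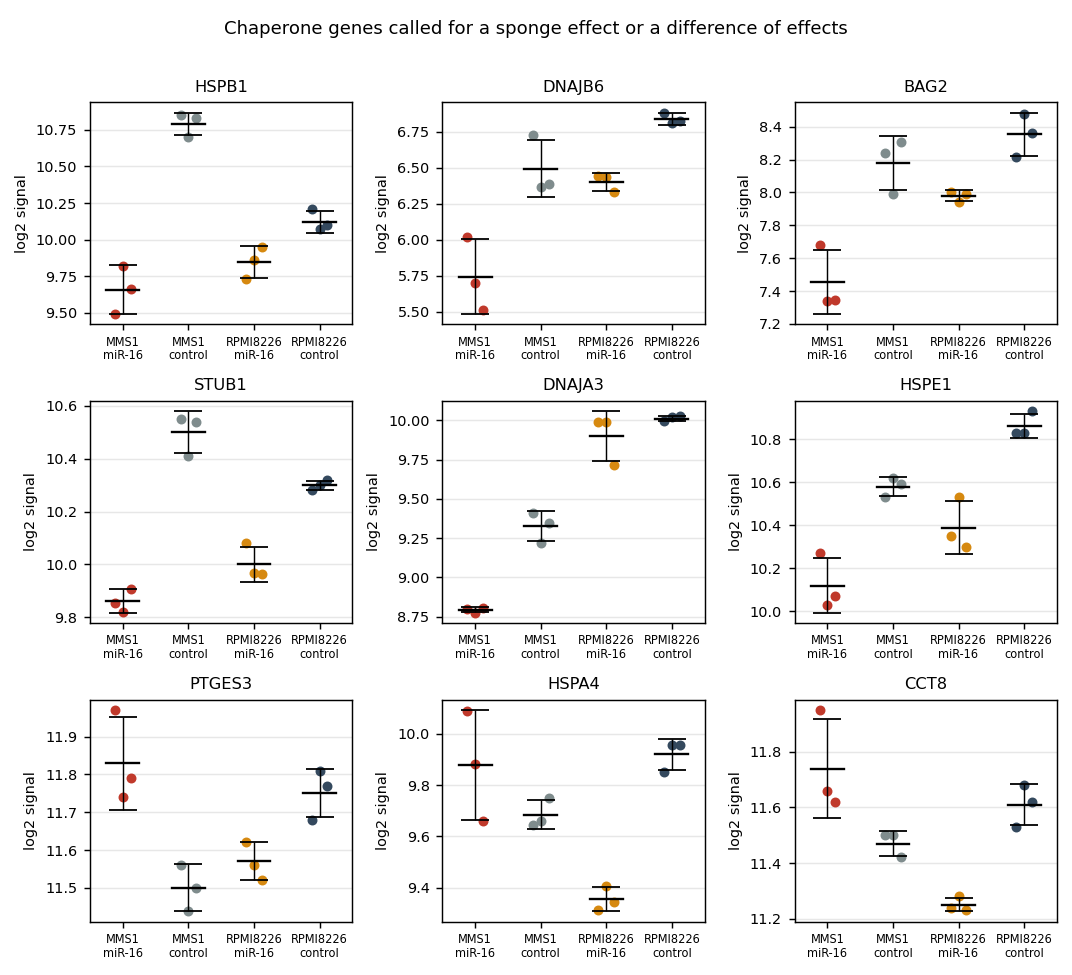
Log2 signal on each array for the 9 chaperone genes called for the sponge effect in MMS1 or for the difference of the effects between the lines. Points are arrays, long lines are group means and bars are ± 1 SD (n = 3); the axes differ between panels and do not start at 0. HSPB1, DNAJB6, BAG2, STUB1, DNAJA3 and HSPE1 are lower in MMS1 sponge arrays than in MMS1 controls, and PTGES3, HSPA4 and CCT8 have effects of opposite sign in the 2 lines.

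The 6 TRiC subunits measured alone, CCT2, CCT3, CCT4, CCT5, CCT7 and CCT8, gave 0 calls in either line. Their log2 differences in MMS1 ran from -0.08 (CCT3) to 0.27 (CCT8). In RPMI8226 they ran from -0.36 (CCT8) to -0.17 (CCT5). Each of the 6 had all RPMI8226 sponge arrays below all RPMI8226 controls, and 5 of the 6 had an unadjusted p under 0.05. Among the brightest 10% of genes the shares were 44.3% for such separation and 29.9% for the unadjusted p. The dimmer probe sets of 3 subunits gave smaller or opposite estimates in RPMI8226, 0.08 for CCT8, 0.05 for CCT5 and -0.03 for CCT4. That of CCT2 gave a larger fall, -0.48 against -0.22 for the brighter one. The mean over the 6 subunits was 11.16, 11.18 and 11.18 in RPMI8226 sponge arrays, against 11.42, 11.47 and 11.47 in RPMI8226 controls. It was 11.46, 11.34 and 11.31 in MMS1 sponge arrays, against 11.39, 11.28 and 11.33 in MMS1 controls, which overlapped. TCP1, the alpha subunit of the same ring, was measured with SNORA29, and its brightest probe set had 10.26, 10.29 and 10.29 in RPMI8226 sponge arrays, against 10.72, 10.81 and 10.76 in RPMI8226 controls (-0.49 ± 0.10, limma adjusted p = 0.0712, and 0.0214 without MMS1 sponge replicate 1 in the fit).

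Of the 5 mitochondrial chaperones 2 were called lower in MMS1 and 0 in RPMI8226. All sponge arrays lay below all controls for 4 of them in MMS1, against 18.8% of all genes and 25.4% of the brightest 10%. In RPMI8226 this held for all 5 (for DNAJA3 by a near tie), against 17.1% of all genes and 44.3% of the brightest 10%. HSPE1 (HSP10), the lid of the HSP60 chamber, had 10.27, 10.03 and 10.07 in MMS1 sponge arrays, against 10.53, 10.62 and 10.59 in MMS1 controls. In RPMI8226 HSPE1 had 10.35, 10.53 and 10.30 in sponge arrays and 10.83, 10.83 and 10.93 in controls. The arrays separated in both lines with estimates of like size, -0.45 ± 0.10 in MMS1 (limma adjusted p = 0.0127) and -0.47 ± 0.10 in RPMI8226 (limma adjusted p = 0.0872). The MMS1 call of HSPE1 was lost without MMS1 sponge replicate 2 (0.0539), and without MMS1 sponge replicate 1 HSPE1 was called in RPMI8226 (0.0366), both as adjusted p from limma.

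HSPD1 (HSP60), which folds imported matrix proteins and shares its promoter region with HSPE1, had 12.63, 12.38 and 12.38 in MMS1 sponge arrays, against 12.75, 12.72 and 12.70 in MMS1 controls. In RPMI8226 HSPD1 had 12.98, 12.90 and 12.88 in sponge arrays and 13.07, 13.21 and 13.15 in controls. Sponge arrays lay below controls in both lines, with differences of -0.26 ± 0.10 (limma adjusted p = 0.135) in MMS1 and of -0.23 ± 0.10 (limma adjusted p = 0.341) in RPMI8226. Without MMS1 sponge replicate 1 the HSPD1 difference in MMS1 was -0.35 (limma adjusted p = 0.0336). HSPD1 has 4 other probe sets, and with the mean over all 5 its MMS1 difference was 0.12 (limma adjusted p = 0.425), of opposite sign.

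DNAJA3 (TID1), the mitochondrial HSP40, had 8.80, 8.78 and 8.80 in MMS1 sponge arrays, against 9.41, 9.22 and 9.35 in MMS1 controls. In RPMI8226 DNAJA3 had 9.99, 9.991 and 9.717 in sponge arrays, against 9.997, 10.02 and 10.03 in controls (mean 10.01 ± 0.0144, SD, n = 3). The highest RPMI8226 sponge array thus lay just below the lowest control. DNAJA3 fell in MMS1 by 0.53 on the log2 scale (SE 0.10, limma adjusted p = 0.00453, both probe sets called) and differed by -0.11 in RPMI8226 (limma adjusted p = 0.677). TRAP1, the mitochondrial HSP90, differed by -0.26 in MMS1 and -0.21 in RPMI8226, with no overlap in either line and no call. HSPA9 (mortalin), the mitochondrial HSP70 that draws proteins through the import channel, differed by 0.08 in MMS1, where the arrays overlapped, and by -0.20 in RPMI8226, where they did not.

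Across RPMI8226 the chaperone genes lay to 1 side without single calls. By limma 0 of the 40 passed an adjusted p under 0.05, and 18 had an unadjusted p under 0.05 (45%, against 14.3% of all genes and 29.9% of the brightest 10% of genes). With array weights in the fit 2 were called lower. Of the 40 estimates 35 lay below 0 (87.5%), against 53.5% of all genes and 68.1% of the brightest 10%, and the median difference was -0.194, against -0.0165 and -0.0924. For 26 of the 40 genes all sponge arrays were below all controls, and for HSPA6 alone all were above. The first share is 65%, against 17.1% of all genes and 44.3% of the brightest 10%, the second 2.5%, against 7.79% and 12.2%. In MMS1 the same counts were 9 genes below and 4 above. Their shares were 22.5% below, against 18.8% of all genes and 25.4% of the brightest 10%, and 10% above, against 12.3% and 26.8%. The part of signal level in the chaperone shares was not tested. Of the 40, 21 were among the brightest 10%, and 20 of these 21 had estimates below 0, with a median of -0.222.

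Averaged over both lines, 6 of the 40 genes (15%) were called, all lower. Of all genes 8.84% were called (2.24% higher, 6.6% lower). Of those above the median signal, a range in which 36 of the 40 lay, 14.1% were called (3.03% higher, 11% lower). The 6 called chaperone genes were HSPB1 (-0.71), DNAJB6 (-0.59), BAG2 (-0.55), STUB1 (-0.47), HSPE1 (-0.46) and DNAJA3 (-0.32), with limma adjusted p from 0.000143 to 0.0171. They were also the 6 genes called lower in MMS1. The average shares its arrays with both single-line comparisons, so these calls are no separate evidence. Without MMS1 sponge replicate 1 the average gave 12 lower calls, among them DNAJC7 (-0.31), HSPD1 (-0.29), DNAJA1 (-0.28), STIP1 (-0.25), HSPA4 (-0.24) and CCT3 (-0.23).

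The sponge effect differed between the lines for 4 of the 40 genes (10%), 1 with a positive and 3 with a negative difference. Of all genes 5.9% were called (2.63% positive, 3.27% negative), as were 9.39% of those above the median signal and 14.5% of the brightest 10%. HSPB1 had a difference of effects, RPMI8226 minus MMS1, of 0.86 (limma adjusted p = 0.00625). HSPA4 had -0.76 (limma adjusted p = 0.0147), CCT8 -0.63 (limma adjusted p = 0.0278) and PTGES3 -0.52 (limma adjusted p = 0.048). HSPA4, CCT8 and PTGES3 had positive estimates in MMS1 and negative ones in RPMI8226. CCT8 had 11.95, 11.66 and 11.62 in MMS1 sponge arrays, against 11.50, 11.50 and 11.42 in MMS1 controls, and 11.24, 11.28 and 11.23 in RPMI8226 sponge arrays, against 11.53, 11.68 and 11.62 in RPMI8226 controls. For HSPA4 and CCT8 the probe sets not of the x_at or s_at kind gave differences of 0.22 and 0.04, so both calls hold only for the brighter probe sets. Of the 4 calls, those of HSPA4 and HSPB1 held without MMS1 sponge replicate 1 (limma adjusted p = 0.0192 and 0.0107), as did CCT8 (0.0322). CCT8 lost its call without any 1 of 8 other arrays (limma adjusted p from 0.0569 to 0.0751) and with the replicate block (0.052). PTGES3 lost its call without any 1 of the 12 arrays, with limma adjusted p from 0.0511 to 0.112.

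When RPMI8226 was compared with MMS1 under the control sponge, 5 of the 40 genes differed (12.5%), 3 higher and 2 lower in RPMI8226. Of all genes 10.3% differed (6.52% higher, 3.8% lower), as did 16.3% of those above the median signal and 22.9% of the brightest 10%. Higher in RPMI8226 were 3 of the 5 mitochondrial chaperones. DNAJA3 was higher by 0.69 ± 0.10 (1.61-fold, limma adjusted p = 0.000863), HSPA9 by 0.62 ± 0.13 (1.54-fold, limma adjusted p = 0.00769) and HSPD1 by 0.42 ± 0.10 (1.34-fold, limma adjusted p = 0.0188). HSPA9 had 11.42, 11.53 and 11.44 in RPMI8226 control arrays, against 10.87, 10.81 and 10.83 in MMS1 control arrays, and 3 of its 4 probe sets were called higher. Lower in RPMI8226 were HSPB1 (-0.67 ± 0.11, limma adjusted p = 0.00181) and DNAJA2, a cytosolic HSP40 (-0.51 ± 0.11, limma adjusted p = 0.00937). DNAJA2 had 7.93, 8.21 and 8.09 in RPMI8226 control arrays, against 8.66, 8.56 and 8.53 in MMS1 control arrays. The MMS1 control arrays enter both this comparison and the sponge effect in MMS1, so the line difference and the sponge effect of HSPB1 and DNAJA3 rest in part on the same arrays. The HSPD1 call was lost without any 1 of 5 control arrays, with limma adjusted p from 0.0557 to 0.0813. It was also lost with the mean over the HSPD1 probe sets (0.25, limma adjusted p = 0.0776) and with the one not of the x_at or s_at kind (0.12, limma adjusted p = 0.756). Without MMS1 sponge replicate 1 in the fit, HSPA4L (-0.35, limma adjusted p = 0.0428) and DNAJC7 (0.40, limma adjusted p = 0.0333) were called as well.

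**Figure D4:**
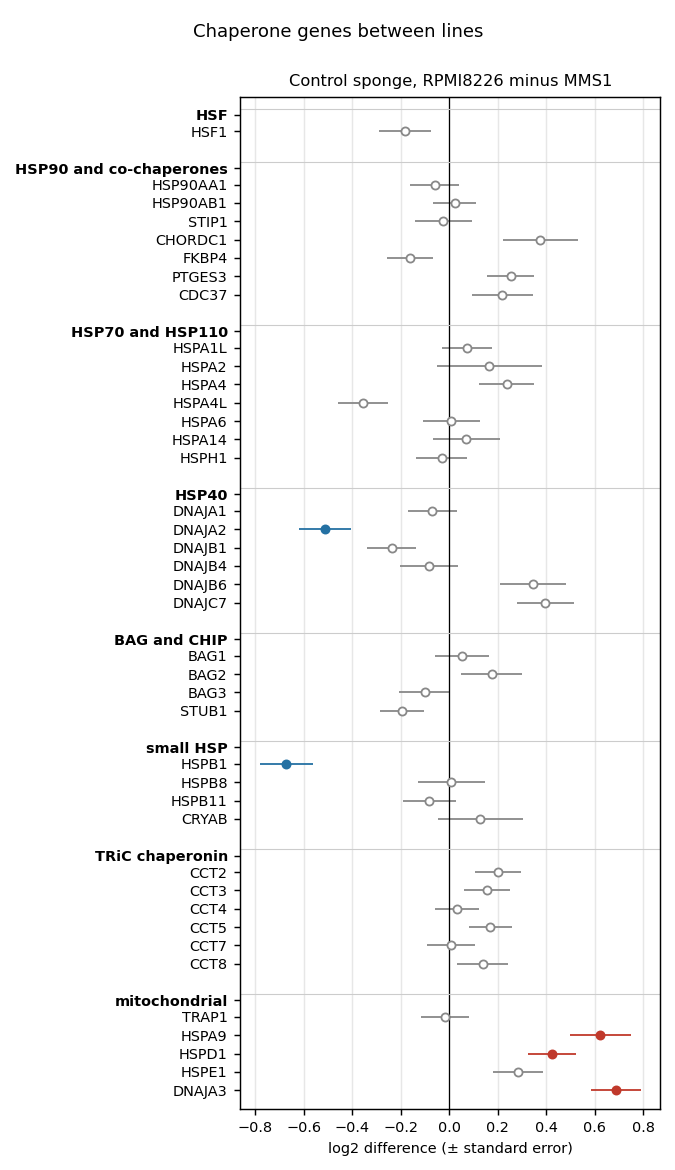
Log2 difference between the control sponge arrays, RPMI8226 minus MMS1, for the 40 chaperone genes by role. Points are limma estimates from 3 arrays a group, bars are ± 1 SE and filled points passed an adjusted p under 0.05: HSPA9, HSPD1 and DNAJA3 (red) are higher in RPMI8226, and HSPB1 and DNAJA2 (blue) are lower.

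The genes were also set apart by the heat shock element of their promoters, as a description. Of the 7 measured genes with an element of 3 units, only DNAJB6 was called in MMS1, and the median difference was -0.0448. The 28 measured genes whose promoters held none had 1 higher and 4 lower calls and a median of -0.0132. In RPMI8226 the medians were -0.167 with an element and -0.214 without, and 0 were called in either set.

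Other chaperones outside the 46 genes were tested in the same fit. Of 42 other cytosolic chaperone genes, 2 rose and 3 fell in MMS1 with the sponge (11.9%, against 12.4% of all genes). CCT6A, a further subunit of TRiC, had 10.15, 9.83 and 9.77 in MMS1 sponge arrays, against 9.17, 9.21 and 9.17 in MMS1 controls (0.73, limma adjusted p = 0.000952), and 9.84, 9.83 and 9.69 in RPMI8226 sponge arrays, against 10.17, 10.28 and 10.30 in RPMI8226 controls (-0.46, limma adjusted p = 0.109). DNAJC9, a histone co-chaperone, fell in MMS1 (-0.66, limma adjusted p = 0.00142), as did DNAJB12, an HSP40 of the endoplasmic reticulum membrane (-0.54, limma adjusted p = 0.0339).

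Prefoldin, which hands nascent actin and tubulin to TRiC, had 8 of 10 listed genes measured, of which 3 were called in MMS1 (37.5%). Of all genes 12.4% were called there, as were 19.3% of those above the median signal and 24.4% of the brightest 10%. PFDN4 (0.44, limma adjusted p = 0.0149) and PFDN5 (0.32, limma adjusted p = 0.0387) rose in MMS1 and UXT fell (-0.50, limma adjusted p = 0.00484). Of 18 other mitochondrial chaperones and proteases, 5 were called in MMS1 (27.8%, against the same 12.4%, 19.3% and 24.4%). CLPX (0.52) and CLPB (0.34, named after its value was seen) rose. HTRA2, a protease of the intermembrane space (-0.76, limma adjusted p = 0.000435), BCS1L, an assembly factor of respiratory complex III (-0.73, limma adjusted p = 0.000262), and DNAJC11 (-0.60, limma adjusted p = 0.00223) fell. In RPMI8226 limma called 0 genes of these 3 lists, and 10 of the other cytosolic genes, 2 of the prefoldin genes and 3 of the 18 other mitochondrial genes had an unadjusted p under 0.05, as did 14.3% of all genes.

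Of 18 chaperones of the endoplasmic reticulum 7 rose and 0 fell in MMS1 (38.9%), with a median of 0.382. Of all genes 4.34% were called higher, as were 6.51% of those above the median signal and 231 of 1978 in the brightest 10%. HSPA5 (BiP), the HSP70 of that compartment, had 11.49, 11.14 and 11.06 in MMS1 sponge arrays, against 10.07, 10.03 and 9.98 in MMS1 controls (1.20, limma adjusted p = 1.62e-05). In RPMI8226 0 of the 18 were called, with a median of -0.219, against -0.0165 over all genes and -0.0924 in the brightest 10%. 

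Markers of other cell types moved in MMS1, and in RPMI8226 erythroid markers alone were called. HBB, CD3D and KRT8 are named after their values were seen. Of the 9 erythroid markers 7 were called in MMS1, 5 lower and 2 higher, and 2 in RPMI8226, 1 in each direction. HBB was higher in sponge arrays by 2.91 in MMS1 and by 3.16 in RPMI8226. The summed log2 signals of the 9 ran from 88.47 to 89.10 in MMS1 sponge arrays, against 92.83 to 93.27 in MMS1 controls, and from 94.59 to 95.22 in RPMI8226 sponge arrays, against 92.40 to 93.19 in RPMI8226 controls. In RPMI8226 HBB alone rose by more than the sum. The medians of the 9 markers were lower in sponge arrays in both lines. They were 9.27 to 9.40 against 9.65 to 9.84 in MMS1, and 9.46 to 9.63 against 9.65 to 9.78 in RPMI8226. Of the 12 plasma cell markers 0 were called by limma in either line, and 1 in each line had an unadjusted p under 0.05. Of 7 T cell markers measured 0 were called in RPMI8226 and 1 in MMS1, CD3D, which was higher by 5.64 in sponge arrays. The summed log2 signals of the 7 ran from 48.13 to 49.31 in MMS1 sponge arrays, against 42.10 to 42.75 in MMS1 controls, and from 42.35 to 43.09 in RPMI8226 sponge arrays, against 42.25 to 43.29 in RPMI8226 controls. CD3D made up most of the MMS1 shift, and the medians of the 7 markers overlapped, at 5.65 to 5.87 in MMS1 sponge arrays and 5.58 to 5.90 in MMS1 controls. Of 7 epithelial markers 5 rose in MMS1 (against 4.34% of all genes called higher), KRT8 by 2.60, and 0 were called in RPMI8226. Their summed log2 signals ran from 62.32 to 63.07 in MMS1 sponge arrays, against 57.12 to 57.74 in MMS1 controls, and from 59.95 to 60.85 in RPMI8226 sponge arrays, against 60.71 to 61.19 in RPMI8226 controls. The part of these shifts in the chaperone results was not tested.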

How the data were processed

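Per the labels, total RNA (15 µg) was amplified in 2 linear rounds and labelled with biotin. The authors deposited a log2 signal for each probe set on each array. The method of summarizing probes and scaling arrays was not given in the sources used here. Array medians were alike, so no further normalization was applied. Of 54675 probe sets, 62 controls were left out and 54613 tested, of which 41091 named 1 gene, 1801 several and 11721 none in the platform annotation, matched to RefSeq (GRCh38.p14). The brightest probe set naming a gene alone stood for it (19775 genes). HSPB11 was matched by gene identifier.

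Group means over the 12 arrays were estimated jointly by limma (version 3.58.1, R 4.3.3), with 8 residual and 4.92 prior degrees of freedom. It gave 5 comparisons: the sponge effect in each line, their average, their difference and the difference between control sponge arrays. P-values are two-sided, moderated and adjusted by Benjamini and Hochberg over all probe sets. The fit was tested on simulated data. Replicate numbers did not pair the arrays: residuals of same-numbered arrays correlated by -0.0748 to 0.0577. Within groups, arrays correlated by 0.974 to 0.986, so none was a duplicate. Tables were made with pandas 2.3.3 and numpy 2.4.6 in Python 3.11.15, and figures with matplotlib 3.10.9.

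The members and lists were chosen with earlier results of these data known. Genes given array by array were up to 5 called genes each way with the largest difference in each single comparison, with HSF1 and the stress-inducible genes HSPA1A, HSPA1B, HSPH1, DNAJB1, HSPB1, BAG3, HSPE1 and HSPD1. HSPA6, CLPB, the second probe sets and genes called for a difference of effects were added after their values were seen. From each other list up to 4 genes with the smallest p were named. Alternatives were each array left out, quantile normalization, only probe sets above the median signal, the mean over a gene's probe sets, the brightest probe set not of the x_at or s_at kind, a replicate block, fits of 2 groups and array weights.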

Additional observations from a re-analysis of the deposited data

Results flagged for a closer look

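The sponge effect differed between the lines, by limma's test of the difference itself (RPMI8226 effect minus MMS1 effect, log2), for 4 chaperone genes. These were 10% of the 40, against 5.9% of all genes and 9.39% of those above the median signal. HSPB1 had a difference of 0.861, with all sponge arrays below all controls in both lines. HSPA4 (-0.761), CCT8 (-0.628) and PTGES3 (-0.521) had effects of opposite sign in the lines. CCT8 lost the call without any 1 of 8 arrays (adjusted p from 0.0569 to 0.0751) and with a replicate block (0.052). For HSPA4 and CCT8 the probe sets not of the x_at or s_at kind gave no such difference. PTGES3 lay near the threshold (adjusted p = 0.048) and lost the call without any 1 of the 12 arrays (0.0511 to 0.112), with quantile normalization (0.0714) and with a replicate block (0.0782).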

How the results depend on the processing

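Median differences of the 40 genes kept their direction in all comparisons; that of the difference of effects, -0.125, was -0.0482 after quantile normalization and -0.0236 with probe sets not of the x_at or s_at kind. The MMS1 sponge comparison gave 7 calls, and 5 to 7 without 1 array, 11 with the mean over a gene's probe sets and 3 with probe sets not of the x_at or s_at kind (29 genes). HSPB1, DNAJB6, STUB1, DNAJA3 and HSPE1 had no probe set outside that kind. They dropped out of that setting in every comparison and were not tested in it. The 3 MMS1 calls with it were BAG2, PTGES3 and DNAJA1. The RPMI8226 comparison gave 0 calls, and 0 to 2 without 1 array (2 without MMS1 sponge replicate 1, 1 without replicate 3), 4 among probe sets above the median signal, 1 with the mean and 2 with array weights, all lower. The average gave 6 calls, and 5 to 12 without 1 array (12 without MMS1 sponge replicate 1), 11 above the median signal, 10 with the mean, 2 with probe sets not of the x_at or s_at kind and 10 with array weights. The difference of effects gave 4 calls, and 2 to 3 without 1 array, 1 with probe sets not of the x_at or s_at kind and 2 with a replicate block. The control line comparison gave 5 calls, and 4 to 7 without 1 array, 8 above the median signal and 2 with probe sets not of the x_at or s_at kind. With probe sets not of the x_at or s_at kind, signs of called results turned for the differences of effects of HSPA4 (0.224, limma adjusted p = 0.536) and CCT8 (0.0418, limma adjusted p = 0.921). HSPA6, not called in the average (0.0578), was called with the opposite sign with the mean over probe sets (-0.22, limma adjusted p = 0.0313). Among uncalled estimates, signs turned with probe sets not of the x_at or s_at kind for HSPD1 in MMS1 (0.184) and in the average (0.164), and for HSPA4 (0.0339) and CCT8 (0.0776) in RPMI8226. With the mean over probe sets they turned for HSPD1 in MMS1 (0.12) and in the average (0.112), and HSPA6 in MMS1 (-0.0408) turned in 3 settings. The cause was not tested. With 2 units in place of 3, 53.7% of the 41 chaperone genes held the heat shock element in a promoter. CCT8 lost its call for the difference of effects without any 1 of 8 arrays (limma adjusted p from 0.0569 to 0.0751) and with the replicate block (0.052). The replicate block left 6 MMS1 calls (that of PTGES3 was lost), 0 in RPMI8226, 6 in the average and 5 between control arrays. The arrays share only a number, so a call lost under the block says nothing of the size of an effect. Few arrays, a lower bound on dim probe sets and several probe sets per gene that disagree limit these results.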

Other observations

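Among the 89 probe sets assigned to a single chaperone gene, 3 were called higher and 13 lower in MMS1 (18%, against 10.3% of all probe sets tested), and limma called 0 in RPMI8226 (0.196% of all probe sets), where 37 had an unadjusted p under 0.05 (41.6%). Counted by gene, 19.3% above the median signal and 24.4% of the brightest 10% were called in MMS1. In RPMI8226 14.3% of all genes and 29.9% of the brightest 10% had an unadjusted p under 0.05. A dim HSPD1 probe set had log2 signals of 5.45, 5.60 and 5.31 in MMS1 sponge arrays, against 4.83, 4.20 and 4.16 in MMS1 controls (1.06, limma adjusted p = 0.00451), the opposite direction to the bright probe set of HSPD1. In RPMI8226 the same dim probe set had 5.76, 5.36 and 5.24 in sponge arrays and 4.90, 4.82 and 4.32 in controls (0.77, limma adjusted p = 0.13).

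DNAJB5, an HSP40 gene outside the 46, had 6.60, 6.70 and 6.86 in RPMI8226 sponge arrays, against 5.89, 6.15 and 6.07 in RPMI8226 controls (0.69, limma adjusted p = 0.0544), the largest difference of the 42 other cytosolic chaperone genes in that line. In MMS1 it had 6.27, 6.58 and 6.50 in sponge arrays and 6.38, 6.28 and 6.04 in controls, which overlapped (0.21).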
